A study of Mus musculus with 6 samples.

Results

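The nuclear genes for the subunits of the respiratory chain and of the ATP synthase were examined in bone-marrow-derived macrophages (BMDMs), which are macrophages grown in culture from mouse bone marrow. Members were selected on their symbols and on a mean of at least 1 TPM over the 6 libraries. TPM are reads per exon length, with an equal sum in all libraries. The symbols were Nduf followed by a, b, c, s or v and a digit for complex I, and Uqcr or Cyc1 for complex III. For complex IV they were Cox4i, Cox5, Cox6, Cox7 or Cox8, and for complex V Atp5. Of 94 matching symbols among 54532 genes, 8 were left out for the suffix -ps and 11 for a lower mean. The remaining 75 members comprised 36 genes of complex I, 9 of complex III, 13 of complex IV and 17 of complex V. The mean level was the only measured value used for the choice, and all 75 members had a mean of at least 1 TPM in each group on its own.

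The study asked how metformin changes the acute response of macrophages to LPS, a cell wall component of Gram-negative bacteria. RNA-seq libraries were made from BMDMs of C57BL/6 mice in 3 groups of 2 replicates, A and B. Untreated BMDMs received neither agent, LPS BMDMs received 100 ng/ml LPS for 2 h, and Met + LPS BMDMs spent 6 h in 5 mM metformin before the same LPS treatment. No group received metformin alone, so that every effect of metformin was measured in LPS-treated cells. The cells were seeded in duplicate, and nothing states that A and B came from different mice or separate cultures, so that p-values measure the spread between these libraries only, which may be technical.

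Complexes I, III and IV pass electrons from NADH to oxygen in the inner mitochondrial membrane and pump protons, and complex V, the ATP synthase, uses the resulting proton gradient to make ATP. Most of their subunits are encoded in the nucleus, and a small core is encoded by mitochondrial DNA (mtDNA). In macrophages, activation by LPS is known to be followed by a shift of energy metabolism from respiration to glycolysis, and metformin is widely described as an inhibitor of complex I.

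The reads on genes recovered from the TPM values numbered between 25457016 and 30762754 per library. The members rested on a median of 1010 reads per library, with a median SD of 2.80% of the group mean, and 6 of them (Ndufb2, Ndufb4, Cox6a2, Cox7a1, Atp5l and Atp5s) fell under 100 reads in at least 1 library. A further limit on single levels is that 11 members share over 10% of their exon bases with another gene (among them Ndufa2, Ndufb9, Cox5a and Atp5j) and that in 9 members under 75% of the 31-base words of the exons occur in no other gene. Together the members made up 1.09% of all TPM in both untreated libraries, 0.884% in both LPS libraries, and 0.814% and 0.835% in Met + LPS replicates A and B. Since TPM are shares of a library, a lower share of cells of one type and less RNA per cell cannot be told apart in them. Macrophage markers were present throughout, with Cd68, a lysosomal protein of macrophages, at 4583 to 6100 TPM and Csf1r, the receptor for the growth factor of macrophages, at 1224 to 1943 TPM.

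Levels differed widely among the members of a complex. In complex I the means over the 6 libraries ran from 2.37 TPM for Ndufb2 to 320.2 TPM for Ndufa2, both accessory subunits. Complex III was the most even, from 69.7 TPM for Uqcrq, which encodes a small subunit, to 202 TPM for Uqcrh, the hinge protein. In complex IV they ran from 6.24 TPM for Cox6a2, the form of subunit 6a typical of heart and skeletal muscle, to 517 TPM for Cox8a. In complex V they ran from 1.50 TPM for Atp5l, subunit g, to 492 TPM for Atp5b, the catalytic beta subunit. Reads were recovered as whole numbers with the joined length of all annotated exons, which was 6443 bases in Atp5l and 5628 in Ndufb2. The median over members was 1587 bases, and at equal reads a longer annotation gives a lower TPM. How far this shaped the ranges was not tested. Atp5l was the member closest to the limit of 1 TPM, and Cox6b2 (0.659 TPM) and Cox6c2 (0.638 TPM) were the closest genes left out. Of the 11 genes under the limit, 4 were listed at 0 in all libraries. Ndufb1-ps, which was left out for its suffix, stood at 110 to 152 TPM in the 6 libraries.

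To show what surrounds the start sites of the members on which the comparisons turned, RefSeq windows (GRCm38.p6) from 250 bases before to 50 bases after a start were searched on both strands for the letters GCGCATGC (core of the element of NRF1), CCGGAAG (element of ETS factors, such as GABPA) and AAGATGGC (element of YY1). NRF1, GABPA and YY1 are known to act on promoters of respiratory genes. Of the 75 members, 62 had a window, in 67 windows. Cox6a2 and Uqcrq, which had the largest increases with metformin, had no window and were not searched. The NRF1 core stood in 9 of the 67 (13.4%), in 2.71% of all 32851 windows and in 5.34% of the 11776 windows of genes that passed the filter on low TPM. The ETS element stood in 14 (20.9%), against 8.86% of all windows but 18.3% of those of genes that passed the filter. The YY1 element stood in 10 (14.9%), against 2.75% and 4.65%. At least 1 of the 3 elements was found in 28 member windows (41.8%), in 13.3% of all windows and in 25.9% of those of genes that passed the filter, so that 39 member windows held none. The last 3 letters of the ETS element are the first 3 of the YY1 element, so that a stretch can hold both, and a stretch with the NRF1 core on one strand often holds it on the other.

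In 8 of the 10 member windows with the YY1 element, the element lay on the gene's own strand and began 23 to 39 bases after the start. These bounds were set from the same member windows. Of all 903 windows with the element, 124 (13.7%) held it on the own strand within them. These counts describe letters in a window and not binding.

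Of the members with large changes in their complex, 6 whose windows hold an element were picked for display, after the search, and their windows are given 5′ to 3′ on the gene's own strand, with each element in capitals. The windows of Ndufv3, Atp5s, Cox7a2l, Uqcr10, Ndufa4 and Atp5g3, which also had large changes, held none of the 3 elements.
Ndufa6, chr15:82354242-82354541, minus strand: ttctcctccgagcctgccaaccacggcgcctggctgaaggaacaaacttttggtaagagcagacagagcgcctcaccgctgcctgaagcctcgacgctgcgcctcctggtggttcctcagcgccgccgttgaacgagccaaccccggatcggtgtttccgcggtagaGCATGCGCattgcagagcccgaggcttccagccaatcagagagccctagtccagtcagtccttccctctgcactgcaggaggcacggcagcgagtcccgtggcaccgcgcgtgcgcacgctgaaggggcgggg
Ndufb7, chr8:83566508-83566807, plus strand: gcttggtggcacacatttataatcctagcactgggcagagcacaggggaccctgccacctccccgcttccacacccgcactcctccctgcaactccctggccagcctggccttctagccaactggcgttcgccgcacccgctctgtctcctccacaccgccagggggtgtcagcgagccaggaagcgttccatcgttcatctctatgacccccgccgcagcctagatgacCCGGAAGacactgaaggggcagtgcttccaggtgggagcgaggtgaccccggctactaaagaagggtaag
Ndufs7, chr10:80249199-80249498, plus strand: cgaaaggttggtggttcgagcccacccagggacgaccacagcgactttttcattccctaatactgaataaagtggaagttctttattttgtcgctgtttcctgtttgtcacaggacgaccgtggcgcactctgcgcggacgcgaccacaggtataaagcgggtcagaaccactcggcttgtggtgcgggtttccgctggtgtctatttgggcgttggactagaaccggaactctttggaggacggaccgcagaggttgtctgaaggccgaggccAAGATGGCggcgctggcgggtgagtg
Uqcr11, chr10:80406772-80407071, minus strand: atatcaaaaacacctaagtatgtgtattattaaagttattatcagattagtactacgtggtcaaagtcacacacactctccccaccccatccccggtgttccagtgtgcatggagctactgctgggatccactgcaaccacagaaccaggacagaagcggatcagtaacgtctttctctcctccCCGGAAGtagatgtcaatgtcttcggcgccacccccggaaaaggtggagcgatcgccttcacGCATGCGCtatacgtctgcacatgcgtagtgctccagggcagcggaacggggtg
Cox6a1, chr5:115348909-115349208, minus strand: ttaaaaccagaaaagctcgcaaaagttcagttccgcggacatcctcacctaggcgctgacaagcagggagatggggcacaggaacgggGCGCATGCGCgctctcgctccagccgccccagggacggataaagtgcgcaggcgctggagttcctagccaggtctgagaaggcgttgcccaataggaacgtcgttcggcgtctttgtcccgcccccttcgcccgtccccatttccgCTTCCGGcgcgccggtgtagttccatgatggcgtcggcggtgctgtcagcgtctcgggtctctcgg
Atp5g2, chr15:102670998-102671297, minus strand: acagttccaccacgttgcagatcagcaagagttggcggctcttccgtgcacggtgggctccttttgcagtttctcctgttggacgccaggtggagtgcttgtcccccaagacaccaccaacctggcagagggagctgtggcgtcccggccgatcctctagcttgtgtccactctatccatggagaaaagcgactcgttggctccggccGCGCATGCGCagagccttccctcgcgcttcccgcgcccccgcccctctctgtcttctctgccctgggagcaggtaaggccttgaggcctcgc
The window of Ndufa6 held the NRF1 core and that of Ndufb7 the ETS element, and these genes moved in opposite directions with metformin. Ndufs7 had the YY1 element 25 bases after the start. Both Uqcr11 and Cox6a1 had an ETS element and the NRF1 core, and Atp5g2 had the NRF1 core, read on both strands.

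Next, LPS and untreated BMDMs were compared. Nuclear subunit transcripts took a smaller share of the library after LPS. The summed TPM of the 75 members were 10884 ± 16.8 (SD, n = 2) in untreated and 8841 ± 7.40 in LPS BMDMs, and thus fell by 18.8%, whereas they rose by 17.0% once the libraries were rescaled to the median gene (described further on). Complex I, which takes electrons from NADH, fell by 23.7%, from 3505 ± 6.27 to 2673 ± 28.7 TPM. Complex III fell by 15.9%, from 1398 ± 20.4 to 1176 ± 3.05 TPM, complex IV by 17.4%, from 3374 ± 13.6 to 2787 ± 31.2 TPM, and complex V by 15.4%, from 2607 ± 29.7 to 2206 ± 1.83 TPM (SD, n = 2). In each complex both LPS libraries lay below both untreated libraries. Rescaled, the same sums rose by 9.87% in complex I, 21.2% in complex III, 19.0% in complex IV and 21.9% in complex V. Complex I had the lowest ratio of LPS to untreated. Rescaling divides all genes of a library by the same factor and so leaves the order of the complexes almost fixed.

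**Figure D1:**
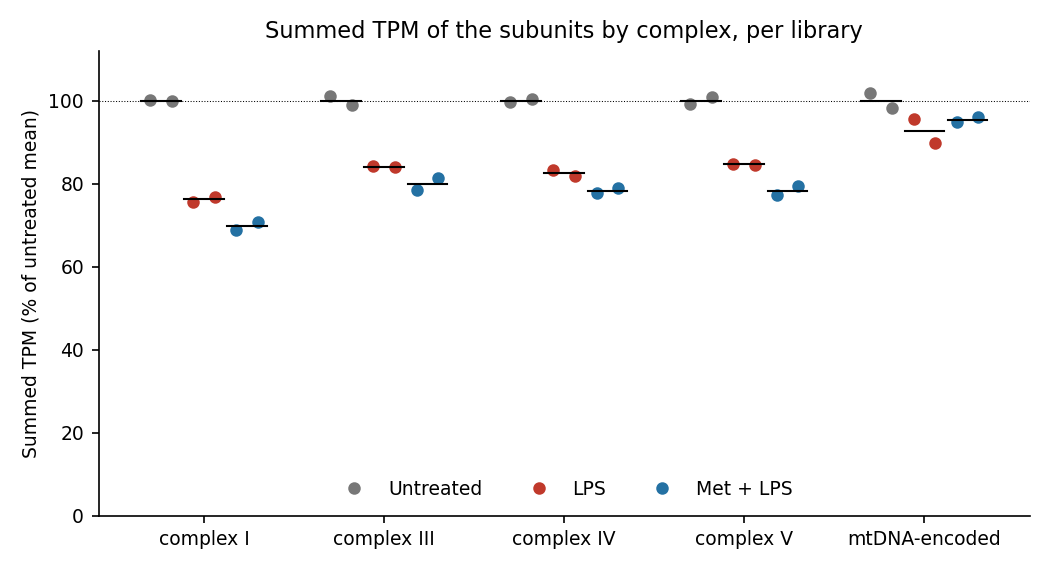
Summed TPM of the subunits of each complex and of the mtDNA-encoded subunits, as a percentage of the untreated mean (vertical axis), with a point per library and a line at the mean of the 2 libraries of untreated, LPS and Met + LPS BMDMs. The mtDNA-encoded sum rests on 7 of 13 genes, since the other 6 were listed at or near 0. In TPM as deposited, the 4 nuclear sums were lower in LPS and lower still in Met + LPS, with the largest decrease in complex I, and the mtDNA-encoded sum of LPS fell by 7.30%, whereas all 5 sums of LPS were above untreated after rescaling to the median gene.

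Complex I also lost ground within the members. Its share of the members' TPM was 32.3% and 32.1% in the untreated libraries and 30.0% and 30.5% in the LPS libraries. The share of complex V was 23.8% and 24.1% in untreated and 25.0% in both LPS libraries, and that of complex III was 13.0% and 12.7% against 13.3% in both. The share of complex IV went from 30.9% and 31.1% to 31.8% and 31.3%. The groups did not overlap in any of the 4 shares, and with 2 libraries against 2 the smallest p-value that a two-sided exact permutation test can give is 0.333.

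Gene by gene, limma on log2(TPM + 1) called 53 of the 75 members (70.7%) lower and 0 higher after LPS at an adjusted p-value under 0.01, and at an unadjusted p-value under 0.05 it gave 70 lower and 0 higher. The voom fit on recovered reads gave 56 lower and 0 higher. It scaled libraries to their total reads, so that it could not show the effect of rescaling. Over all 12755 tested genes, 60.1% were called lower and 16.2% higher. No member passed the study's fold cut-off for this comparison (2 or more on the log2 scale, in either direction), which 6.08% of the tested genes passed, and the count was 0 without adjustment and with voom as well. It was also 0 after rescaling. The study applied this cut-off to DESeq2 fold changes, a different measure from the log2(TPM + 1) differences used here. Without that minimum the calls were 29 of 36 in complex I, 5 of 9 in complex III, 6 of 13 in complex IV and 13 of 17 in complex V. The median log2 fold change was -0.34 over the members and -0.48 over all tested genes, so that the typical member fell less than the typical gene. It was -0.43 in complex I, -0.27 in complex III, -0.19 in complex IV and -0.33 in complex V, and 62 members lay above the median of all genes. Of the 13 members below it, 10 belonged to complex I, 2 to complex IV and 1 to complex V.

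This direction rests on TPM as deposited, in which all genes share a fixed total. When the libraries were rescaled so that the median ratio over genes was 1, the median of all tested genes went from -0.48 to -0.01 and that of the members from -0.34 to 0.18. The calls then turned from 53 lower and 0 higher to 2 lower (Ndufv3 and Atp5s) and 34 higher. The shares of all tested genes called after rescaling are not given, so that counts of rescaled calls, here and elsewhere, lack a background. Rescaled, the medians were 0.09 in complex I, 0.25 in complex III, 0.33 in complex IV and 0.19 in complex V. Complex I was the lowest of the 4 on either scale, since a common factor per library shifts all 4 nearly alike. Of the 73 members with a negative log2 fold change after LPS, 61 turned positive on rescaling and 12 stayed negative. Every decrease after LPS given below is therefore a decrease in share of the library.

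**Figure D2:**
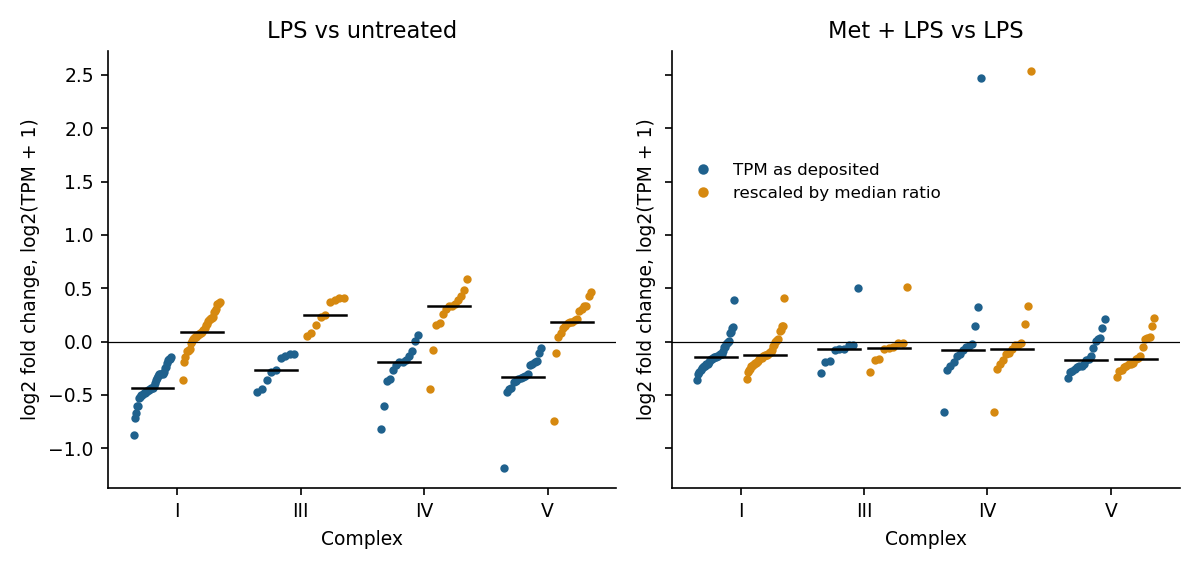
Log2 fold changes of the 75 members by complex, from TPM as deposited (left of each pair) and after rescaling to the median gene (right of each pair), with a point per gene and a line at the median of the complex, for LPS vs. untreated (left panel) and Met + LPS vs. LPS (right panel). Rescaling moved the medians of LPS vs. untreated from below 0 to above 0 in all 4 complexes and left those of Met + LPS vs. LPS below 0.

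The largest decreases of complex I were those of Ndufv3, an accessory subunit of the module that binds NADH, and Ndufs7, a core subunit that carries an iron-sulfur cluster. Ndufv3 (ENSMUSG00000024038, chromosome 17, 31520115 to 31531326) stood at 57.0 and 55.1 TPM in untreated, 29.6 and 30.4 TPM in LPS, and 25.7 and 26.0 TPM in Met + LPS BMDMs. Both LPS libraries were below both untreated libraries, with a log2 fold change of -0.88 (SE 0.04, adjusted p = 3.09e-06 in limma), and it was one of the 2 members still called lower after rescaling (log2 fold change -0.36). Ndufs7 (ENSMUSG00000020153, chromosome 10, 80249121 to 80256794) stood at 85.7 and 88.9 TPM in untreated, 50.3 and 55.7 TPM in LPS, and 57.1 and 59.3 TPM in Met + LPS BMDMs. Its untreated and LPS libraries did not overlap, and its log2 fold change was -0.71 (SE 0.06, adjusted p = 2.96e-05, and -0.19 after rescaling). Ndufs8, another core subunit with iron-sulfur clusters, followed with -0.67 (-0.14 after rescaling). Of the 7 nuclear core subunits of complex I, which hold the flavin and the iron-sulfur clusters, 6 were called lower, with a median of -0.36 that became 0.15 after rescaling, when 2 were called higher. Ndufb9, an accessory subunit of the membrane arm for which the study lists a primer pair, fell from 72.3 ± 3.09 to 53.4 ± 0.524 TPM (SD, n = 2), a log2 fold change of -0.43 (adjusted p = 0.00081, and 0.089 after rescaling). Ndufb9 shares 19.5% of its exon bases with another annotated gene.

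Among the genes of complex III, the small accessory subunits Uqcr11 and Uqcr10 had the largest decreases in TPM as deposited. Rescaling by a common factor per library turned these into the smallest increases. Uqcr11 (ENSMUSG00000020163, chromosome 10, 80402997 to 80406830) stood at 169 and 174 TPM in untreated, 113 and 134 TPM in LPS, and 93.7 and 107 TPM in Met + LPS BMDMs. The libraries of untreated and LPS BMDMs were apart, with a log2 fold change of -0.47 (SE 0.09, adjusted p = 0.00266) that became 0.050 after rescaling, and the LPS libraries differed from each other by more than the untreated ones. Uqcr10 followed with a log2 fold change of -0.44 (adjusted p = 0.000245, and 0.080 after rescaling). Of the 4 catalytic and core proteins (Cyc1, Uqcrfs1, Uqcrc1 and Uqcrc2), Cyc1, which is cytochrome c1, and Uqcrc1, a core protein, were called lower at -0.27 and -0.29, and higher at 0.25 and 0.23 after rescaling.

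In complex IV the largest called decrease was that of Cox7a2l, a protein that joins complexes III and IV into supercomplexes. Cox7a2l (ENSMUSG00000024248, chromosome 17, 83501918 to 83517330) stood at 341 and 342 TPM in untreated, 215 and 236 TPM in LPS, and 279 and 284 TPM in Met + LPS BMDMs. Its groups did not overlap, and its log2 fold change after LPS was -0.60 (SE 0.05, adjusted p = 2.98e-05, and -0.076 after rescaling). Cox8a, the most abundant member, fell from 614 ± 14.6 to 475 ± 12.4 TPM (SD, n = 2), a log2 fold change of -0.37 (adjusted p = 6.49e-05, and 0.16 after rescaling). Of 4 other subunits listed together, Cox4i1, Cox5a, Cox5b and Cox6c, Cox4i1 alone was called lower (log2 fold change -0.22, adjusted p = 0.00203), whereas all 4 were called higher after rescaling. Cox5a stood at 81.1 and 79.9 TPM in untreated and at 84.6 and 84.1 TPM in LPS BMDMs, a log2 fold change of 0.07 that did not pass (adjusted p = 0.102). After rescaling, Cox5a had the largest increase of all members after LPS, at 0.59 on the log2 scale (adjusted p = 8.15e-06).

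The largest decrease of any member was in the list of complex V. Atp5s (ENSMUSG00000054894, chromosome 12, 69724950 to 69744660), a factor associated with the ATP synthase that RefSeq lists as Dmac2l, stood at 7.68 and 7.87 TPM in untreated, 2.71 and 3.02 TPM in LPS, and 2.72 and 3.16 TPM in Met + LPS BMDMs. Both pairs of LPS-treated libraries thus lay under every untreated library. Its log2 fold change was -1.18 (SE 0.09, adjusted p = 3.26e-05), and -0.74 after rescaling. Atp5g2, a gene for the c ring through which protons pass, followed at -0.47 (adjusted p = 3.57e-05, and 0.045 after rescaling). All 3 genes of the c ring and 3 of the 4 genes of the peripheral stalk were called lower, but of the 5 genes of the catalytic head and central stalk 3 were, and after rescaling these 3 lists held no lower call and 1, 4 and 2 higher calls. The head genes not called lower were its most abundant ones. Atp5b, the catalytic subunit, stood at 508 and 521 TPM in untreated and at 486 and 473 TPM in LPS BMDMs, a log2 fold change of -0.10 (adjusted p = 0.019, and 0.42 after rescaling). Atp5a1, the alpha subunit beside it, had a log2 fold change of -0.06 (adjusted p = 0.0834, and 0.46 after rescaling).

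**Figure D3:**
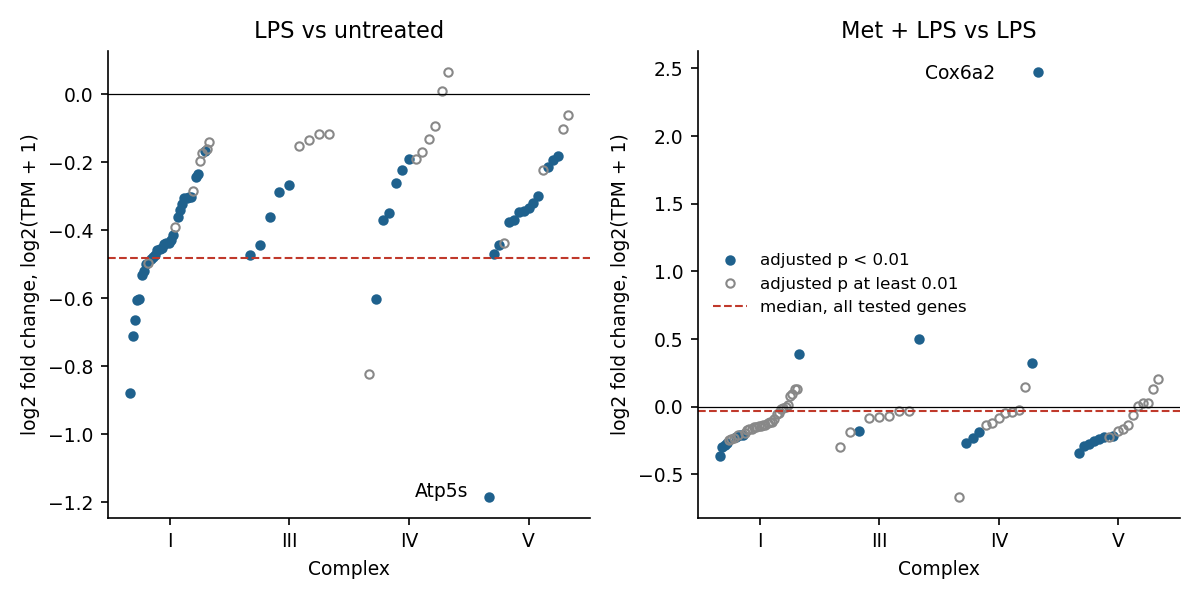
Log2 fold changes of the 75 members (vertical axis, log2(TPM + 1) scale) ordered within each complex, for LPS vs. untreated (left) and Met + LPS vs. LPS (right). Filled points passed an adjusted p-value of 0.01 in limma, open points did not, and the dashed line is the median of the 12755 tested genes, -0.48 on the left and -0.03 on the right. On the left, in TPM as deposited, nearly all points lie below 0 and most lie above the dashed line, close to which 0 lies after rescaling, and on the right Cox6a2 stands alone at 2.47.

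To ask what metformin added, Met + LPS and LPS BMDMs were compared. The members' summed TPM were 8244 ± 144 (SD, n = 2) in Met + LPS and 8841 ± 7.40 in LPS BMDMs, and fell by 6.75%. The sums changed by -8.53% in complex I, -5.02% in complex III, -5.20% in complex IV and -7.48% in complex V, and by -7.64%, -4.09%, -4.26% and -6.57% after rescaling. Both Met + LPS libraries lay below both LPS libraries in each of the 4 complexes. Limma called 18 members (24.0%) lower and 4 (5.33%) higher, against 18.0% and 14.5% of all tested genes. The median log2 fold change was -0.14 over the members and -0.03 over all tested genes. By complex the calls were 7 lower and 1 higher in complex I, 1 and 1 in complex III, 3 and 2 in complex IV and 7 and 0 in complex V, with medians of -0.14, -0.07, -0.08 and -0.18. Rescaling left this comparison much as it was, with 17 lower, 4 higher and a median of -0.12.

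The number of calls in this comparison depended on the fit. The 22 members called fell to 6 without Met + LPS replicate A, 8 without LPS replicate B, 9 without either untreated replicate, 10 without LPS replicate A and 12 without Met + LPS replicate B. Of the 22, 5 were called in the same direction in all 14 refitted alternatives, namely Cox6a2, Uqcrq and Ndufa6, which were higher, and Ndufa4 and Ndufb7, which were lower.

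At the study's fold cut-off for this comparison (0.7 or more on the log2 scale, in either direction), which 8.28% of the tested genes passed, Cox6a2 was the 1 member called (1.33%). The study applied this cut-off to DESeq2 fold changes too, and after rescaling 1 member was called as well. Cox6a2 (ENSMUSG00000030785, chromosome 7, 128205435 to 128206387) stood at 3.48 and 3.69 TPM in untreated, 0.966 and 2.42 TPM in LPS, and 12.3 and 14.6 TPM in Met + LPS BMDMs. Both Met + LPS libraries were above all others, and the lowest level was that of LPS replicate A. The log2 fold change of Met + LPS vs. LPS was 2.47 (SE 0.24, adjusted p = 0.000357). The gene rested on few reads, 151 in the 2 Met + LPS libraries and 17 in the 2 LPS libraries, a ratio of 8.06 per total reads (exact 95% interval 4.87 to 14.2, which covers counting error only). LPS vs. untreated was not called for it (log2 fold change -0.82, adjusted p = 0.0171). Cox6a2 shares 10.3% of its exon bases with Itgad on the opposite strand, and Itgad was listed at 0 to 0.0291 TPM in the 6 libraries.

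Next came Uqcrq, Ndufa6 and Cox7a2l. Uqcrq (ENSMUSG00000044894, chromosome 11, 53427922 to 53430831), a small subunit of complex III, stood at 72.2 and 73.1 TPM in untreated, 55.8 and 56.9 TPM in LPS, and 77.4 and 83.1 TPM in Met + LPS BMDMs. The Met + LPS libraries exceeded not only the LPS but also the untreated libraries. Uqcrq had a log2 fold change of 0.50 (SE 0.04, adjusted p = 0.000229) vs. LPS, and one of 0.14 vs. untreated that was not called (adjusted p = 0.0221) but reached 0.67 after rescaling (adjusted p = 1.82e-05). Ndufa6 (ENSMUSG00000022450, chromosome 15, 82350140 to 82354322), an accessory subunit of complex I of the LYR family whose window with the NRF1 core is printed above, stood at 86.5 and 82.9 TPM in untreated, 54.5 and 56.1 TPM in LPS, and 73.3 and 72.6 TPM in Met + LPS BMDMs. In TPM as deposited its level in Met + LPS BMDMs lay between the other groups, with no overlap. The log2 fold change of Ndufa6 vs. LPS was 0.39 (SE 0.04, adjusted p = 0.000364), and that vs. untreated was 0.32 after rescaling. Cox7a2l, the supercomplex factor, had a log2 fold change of 0.32 (SE 0.05, adjusted p = 0.00189) vs. LPS and stayed below the untreated level in TPM as deposited (log2 fold change -0.28, and 0.26 after rescaling). Its call held in 7 of the 14 refitted alternatives.

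**Figure D4:**
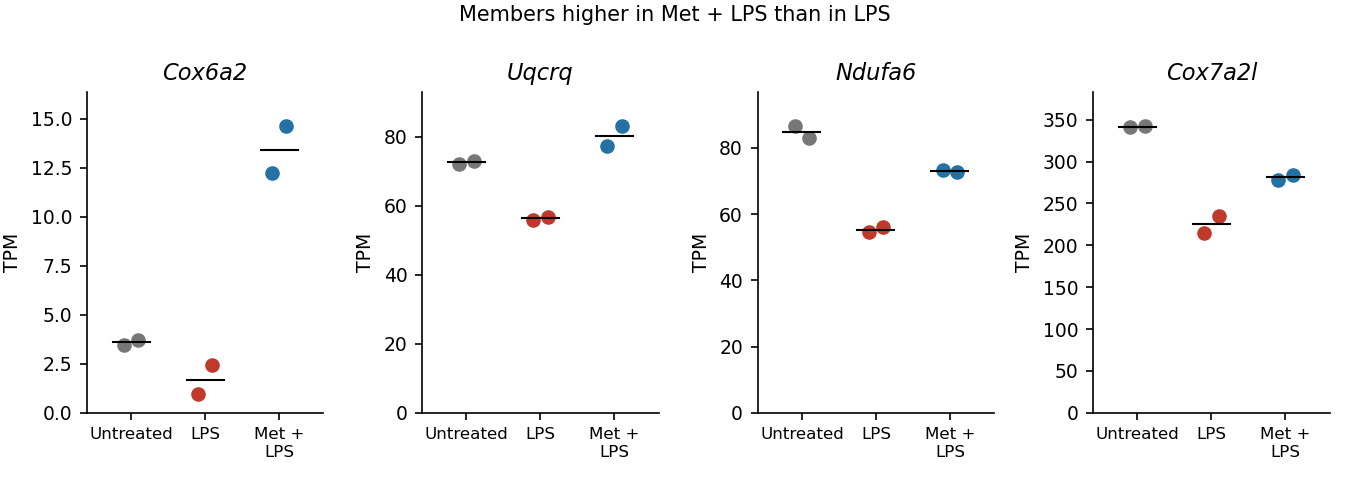
TPM (vertical axes, each from 0) of the 4 members called higher in Met + LPS than in LPS, with a point per library and a line at the mean of each group. Cox6a2 stood at 12.3 and 14.6 TPM in Met + LPS and at most 3.69 TPM elsewhere, whereas in these TPM as deposited Ndufa6 and Cox7a2l in Met + LPS lay between LPS and untreated, and Uqcrq lay above both.

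The decreases with metformin were small. The largest called was that of Ndufb7, an accessory subunit of the membrane arm of complex I, which stood at 32.3 and 32.4 TPM in untreated, 23.3 and 23.8 TPM in LPS, and 17.7 and 18.5 TPM in Met + LPS BMDMs. The 3 groups were apart, and the log2 fold change vs. LPS was -0.36 (SE 0.05, adjusted p = 0.000935). Ndufa4, named as a subunit of complex I and now mostly counted with complex IV, stood at 186 and 190 TPM in untreated, 166 and 169 TPM in LPS, and 133 and 139 TPM in Met + LPS BMDMs. Its log2 fold change was -0.30 with metformin (adjusted p = 0.000845) and -0.17 after LPS (adjusted p = 0.00457, and 0.36 after rescaling), in comparisons that share the LPS libraries. Counting Ndufa4 with complex IV gave medians of -0.44 and -0.19 for complexes I and IV after LPS and of -0.14 and -0.10 with metformin. In complex III, Uqcrc1 was the 1 gene called lower (log2 fold change -0.18, adjusted p = 0.00872), a call that held in 4 of the 14 refitted alternatives and not after rescaling (adjusted p = 0.0119). Ndufb9 was at 42.3 and 48.2 TPM in Met + LPS and at 53.8 and 53.0 TPM in LPS BMDMs, a log2 fold change of -0.24 that was not called (adjusted p = 0.0254).

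In complex V, 7 members were called lower. Atp5g3, a gene for the c ring, had the largest decrease, from 175 and 173 TPM in LPS to 133 and 141 TPM in Met + LPS BMDMs, a log2 fold change of -0.34 (SE 0.05, adjusted p = 0.00153). Atp5j, coupling factor 6 of the peripheral stalk, followed at -0.29 (adjusted p = 0.00194). Atp5a1 stood at 342 and 343 TPM in untreated BMDMs, at 329 TPM in both LPS libraries and at 283 and 279 TPM in the Met + LPS libraries, which were thus the lowest. It had a log2 fold change of -0.22 (adjusted p = 0.000972), which was called in 13 of the 14 refitted alternatives. Its partner Atp5b stood at 481 and 484 TPM in Met + LPS BMDMs, within the range of the LPS libraries (log2 fold change 0.01, adjusted p = 0.837).

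In complex IV, Cox6b1, Cox6a1 and Cox5a were called lower, with log2 fold changes of -0.27, -0.23 and -0.19, in 6, 8 and 6 of the 14 refitted alternatives. Cox6b1, a subunit on the outer face of the enzyme, stood at 512 and 469 TPM in LPS and at 398 and 416 TPM in Met + LPS BMDMs, without overlap. Cox7a1, the form of subunit 7a typical of heart and skeletal muscle, stood at 9.58 and 11.0 TPM in LPS and at 5.19 and 7.18 TPM in Met + LPS BMDMs. It had the most negative log2 fold change of all members in this comparison, -0.66, but was not called (SE 0.17, adjusted p = 0.0186), and it rested on fewer than 100 reads in at least 1 library.

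Several subunits exist in alternative forms encoded by different genes, and these were compared per length, as shares of their summed TPM. Cox6a2 made up 0.585% and 0.583% of Cox6a1 and Cox6a2 in untreated, 0.204% and 0.495% in LPS, and 2.90% and 3.46% in Met + LPS BMDMs, so that Cox6a1, the form found in most tissues, remained the main form in every library. In the pair Cox7a1 and Cox7a2, the muscle form moved the other way, with Cox7a1 at 4.68% and 5.94% in LPS and at 2.91% and 3.64% in Met + LPS BMDMs. The 3 genes of the c ring encode the same mature protein. Atp5g2 contributed 21.1% and 20.4% of their TPM in untreated, 17.6% and 18.2% in LPS, and 23.5% and 22.8% in Met + LPS BMDMs. The share of Atp5g2 thus went down with LPS and up with metformin, without overlap of the groups, and that of Atp5g3 went the other way, from 70.2% and 70.7% to 74.2% and 73.8% and then to 68.1% and 69.4%. Of the 31-mers in its exons, Atp5g2 shares many with other genes (59.8% are its own), so that its level is less certain. Cox4i2 reached at most 0.0456% of Cox4i1 and Cox4i2, Cox8b at most 0.0621% of Cox8a and Cox8b, and Cox6b2 at most 0.209% of Cox6b1 and Cox6b2. Ndufa4l2, a relative of Ndufa4, had a mean of 0.118 TPM.

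Compared with untreated BMDMs, which covers both steps and shares its libraries with the other comparisons, the summed TPM of the members in Met + LPS BMDMs fell by 24.3%, but rose by 10.2% after rescaling. The sums changed by -30.3% in complex I, -20.1% in complex III, and -21.7% in both complex IV and complex V, and by 1.47%, 16.2%, 13.9% and 13.9% after rescaling. Limma called 62 members (82.7%) lower and 1 (1.33%) higher, against 58.8% and 16.3% of all tested genes, and the medians were -0.44 and -0.48. After rescaling, 4 were called lower and 23 higher, with a median of 0.07. In complex I 33 of 36 were called lower, led by Ndufv3 (log2 fold change -1.09) and Ndufb7 (-0.80). Uqcr11 (-0.77, and -0.23 after rescaling) and Uqcr10 (-0.52, and 0.014 after rescaling) led complex III, Cox6a1 (-0.58, and -0.038 after rescaling) and Cox8a (-0.41, and 0.13 after rescaling) led the calls of complex IV, and Atp5s (-1.16) and Atp5d (-0.68), the delta subunit of the central stalk, led complex V. Cox6a2 was the 1 member called higher, with a log2 fold change of 1.65 (SE 0.24, adjusted p = 0.000667).

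The partner subunits encoded by mtDNA were examined next. Of 13, 7 passed the filter, and the other 6 (mt-Nd3, mt-Nd4l, mt-Co2, mt-Co3, mt-Atp6 and mt-Atp8) were listed at or near 0 in all libraries. Whether these 6 lacked RNA or lost their reads in processing was not tested. The sum of the list therefore rests on 7 genes and is not a complete measure of mtDNA-encoded RNA. The sum of the list was 43055 and 41519 TPM in untreated, 40428 and 37975 TPM in LPS, and 40062 and 40654 TPM in Met + LPS BMDMs, so that the LPS libraries were below the untreated ones and overlapped the Met + LPS ones. Limma called 0 of the 7 after LPS (median log2 fold change -0.10), against 60.1% of all tested genes lower and 16.2% higher. At an unadjusted p-value under 0.05 it gave 1 lower, as did voom. After rescaling all 7 were called higher (median 0.43). With metformin, limma called 5 of the 7 lower and 1 higher, against 18.0% and 14.5% of all tested genes. The higher one, mt-Co1, the catalytic subunit of complex IV, rose from 15363 and 14387 to 18445 and 18847 TPM (log2 fold change 0.33). The 5 lower ones (mt-Nd2, mt-Nd4, mt-Nd5, mt-Nd6 and mt-Cytb) fell by 0.22 to 0.27 on the log2 scale. Of these 5, 3 were still called after rescaling. Their nuclear partners in complex I had a median of -0.14 in the same comparison.

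The 4 genes of complex II, which lack any partner encoded by mtDNA, were all called lower after LPS (60.1% of tested genes were called lower and 16.2% higher), with Sdhb at -0.59, but 3 of them were above 0 after rescaling, while Cycs, the mobile carrier cytochrome c, was higher at 0.58 (1.09 after rescaling). The lists of assembly factors also held Ndufab1, itself a subunit of complex I, and Atpif1, an inhibitor of the ATP synthase. After LPS, 13 of 16 genes were lower in the list for complex I and 4 of 4 for complex II. Those for complexes III, IV and V had 4 of 5, 13 of 19 and 3 of 4 lower. The medians of these lists ran from -0.55 to -0.78. After rescaling these medians ran from -0.30 to -0.04, with 3, 1, 3, 6 and 2 calls lower and 1, 0, 0, 5 and 2 higher. In complexes I, III, IV and V they were below the subunit medians, an order that a common factor per library leaves almost fixed. Tmem126b, an assembly factor of complex I, was the 1 past the cut-off of 2, from 22.3 and 22.8 to 4.07 and 4.16 TPM (log2 fold change -2.20), but was within it after rescaling (-1.72). In complex IV assembly, 3 genes were higher, among them Cox17, a copper chaperone, at 1.17. With metformin, 6 of the 48 tested genes of the assembly lists were called lower and 3 higher, against 18.0% and 14.5% of all tested genes. Of 11 nuclear regulators of these genes tested, 6 were lower after LPS and 4 higher, against 60.1% and 16.2% of all tested genes. After rescaling 2 were lower and 4 higher. Ppargc1b, a coactivator of respiratory genes, rose from 3.33 and 3.60 to 18.3 and 20.8 TPM after LPS (log2 fold change 2.20) and was at 11.3 and 11.9 TPM in Met + LPS BMDMs (-0.70 vs. LPS). Its relative Ppargc1a was at most 0.0998 TPM in any library.

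Markers of other cells were low. The defining markers of T cells (Cd3e, Cd3d and Cd3g) were at most 0.0725 TPM. The 5 T cell markers summed to 6.92 and 6.23 TPM in untreated, 4.30 and 3.81 TPM in LPS, and 3.58 and 2.72 TPM in Met + LPS BMDMs, nearly all of it Cd4, and thus moved with the members' sums in TPM as deposited. The sum of the 4 dendritic cell markers went from 0.537 and 0.676 TPM in untreated to 2.40 and 2.20 TPM in LPS, and stood at 2.80 and 2.12 TPM in Met + LPS BMDMs. The 4 B cell markers summed to 0.0550 to 0.515 TPM. The 5 neutrophil markers summed to 27.2 and 30.9 TPM in untreated, 24.4 and 25.8 TPM in LPS, and 42.0 and 40.2 TPM in Met + LPS BMDMs, with Ly6g listed at 0 in all but Met + LPS replicate A (0.140 TPM). Of the 4 tested in Met + LPS vs. LPS, Elane had the smallest adjusted p-value (0.0188), so that none was called. The 3 endothelial markers summed to 21.4 and 23.7 TPM in LPS and to 34.2 and 32.5 TPM in Met + LPS BMDMs, nearly all of it Kdr, which was called higher (log2 fold change 0.55, adjusted p = 0.000644), with Pecam1 and Cdh5 at most 0.297 TPM. The 8 macrophage markers summed to 44621 and 46599 TPM in untreated BMDMs and to 37903 and 37412 TPM in LPS BMDMs. In Met + LPS BMDMs they summed to 30877 and 30948 TPM. In TPM as deposited they thus moved in the same direction as the members' sums. The part of any of these in the members' differences was not tested.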

How the data were processed

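RNA of BMDMs was measured in 3 groups of 2 libraries. The authors enriched poly-A RNA, aligned single-end reads to GRCm38 (STAR 2.6.1d, SAMtools 1.9), counted them per gene with featureCounts (Subread 1.6.3) and deposited TPM, which sum to the same total in every library. How counts became TPM is not given in the sources used here. The authors' own DESeq2 test was not used, since the deposited values are not counts.

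The 12755 genes that reached 1 TPM in 2 or more libraries were tested with limma 3.58.1 (R 4.3.3) on log2(TPM + 1), a scale that understates the changes of low genes, with lmFit and eBayes with a trend, all 6 libraries, no covariate, 3 residual degrees of freedom and Benjamini-Hochberg adjustment over all tested genes. Calls used an adjusted p-value under 0.01, with and without the study's fold-change cut-offs. Reads were recovered from the TPM by exon length (GENCODE, same build). Of values above 0, 96.1% to 96.3% were whole multiples of a library's step within 0.02. The reads went into an added voom fit of 12750 genes, with libraries scaled to their total reads and no further normalization. For rescaling, TPM were divided by size factors that set the median ratio over genes to 1 (1.28 for both untreated and 0.880 to 0.891 for the other libraries). The test was also run on simulated reads in which few genes were changed, as many up as down. Such data lack a shift of the median gene, so that the run cannot speak to the effect of rescaling. Tables were made in Python 3.11.15 with pandas 2.3.3, and plots with matplotlib 3.10.9.

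The members and lists were chosen with earlier results of these data known. Members named are those past a fold-change cut-off, the 2 largest called increases and decreases of each complex without overlap of libraries, the most abundant member of each complex, genes with alternative forms, Ndufb9, and those nearest to the limit of 1 TPM. Other members named, such as Ndufb2, Ndufb4, Ndufs8, Cyc1, Cox5a and Atp5a1, were named after their values were seen.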

Additional observations from a re-analysis of the deposited data

How the results depend on the processing

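The fit was repeated with another pseudocount (0.1), with all genes or only those reaching 5 TPM, after median-ratio rescaling, on the compared groups only, with a replicate block, with no trend in eBayes, with calls at 0.05, leaving out each library in turn and, added after seeing the data, voom on recovered reads. Rescaling decided the direction after LPS. It moved the members' median log2 fold change from -0.34 to 0.18 after LPS and from -0.44 to 0.073 for Met + LPS vs. untreated, and the number of members called in the latter from 63 to 27. For Met + LPS vs. LPS, the 22 members called became 10 without a filter, 9 with the compared groups only, 6 without a trend and 38 at an adjusted p-value of 0.05. The cause was not tested.

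With rescaling, the log2 fold changes of 61 members after LPS and of 47 for Met + LPS vs. untreated turned positive. Among the genes named by the rule, those after LPS were Uqcr11 (0.050), Uqcr10 (0.080), Cox8a (0.16), Atp5g2 (0.045), Atp5g1 (0.13), Atp5g3 (0.33), Cox4i1 (0.30), Cox6a1 (0.18), Cox6b1 (0.39), Cox7a2 (0.33), Ndufa4 (0.36), Ndufa2 (0.22), Uqcrh (0.37), Atp5b (0.42) and Ndufb9 (0.089). Those for Met + LPS vs. untreated were Uqcr10 (0.014), Cox8a (0.13), Atp5g2 (0.19), Atp5g3 (0.0030), Cox4i1 (0.27), Cox6b1 (0.14), Cox7a2 (0.32), Cox7a2l (0.26), Ndufa4 (0.073), Ndufa2 (0.029), Uqcrh (0.20) and Atp5b (0.45).

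Leaving out 1 library gave 38 to 51 calls after LPS, 6 to 12 for Met + LPS vs. LPS and 48 to 62 for Met + LPS vs. untreated. Without 1 library, log2 fold changes that were not called ranged across 0, from -0.18 to 0.19 in Cox7a1 after LPS, and for Met + LPS vs. LPS from -0.094 to 0.0031 in Cox4i1, -0.10 to 0.056 in Cox7a2 and -0.011 to 0.028 in Atp5b.

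With the replicate block, 54, 23 and 64 members were called in the 3 comparisons, and no count moved by over 1.5 times. The deviations of same-lettered libraries from their group means correlated at -0.0037, 0.028 and 0.0062, so that the letters were not used as pairs, but whether they mark a shared culture or day is not stated. Of the 22 members called in Met + LPS vs. LPS, 20 were called again with the block. Low depth limits Cox6a2, with 5 reads in LPS replicate A, and the other members under 100 reads.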
